A study of Homo sapiens with 15 samples.

Results

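THP-1 cells that met *E. coli* BEVs prepared by UC (EUC, 3 libraries) were compared with THP-1 cells that received PBS alone (PBS, 3 libraries), which are 6 of the 15 RNA-seq libraries of the series. The 6 libraries were chosen by their sample titles. BEVs are bacterial extracellular vesicles, here collected from *E. coli* culture medium by ultracentrifugation (UC) and given at 1 μg of protein per mL. THP-1 is a human monocytic leukaemia line, wild type in the labels, and the cells were seeded in wells and incubated for 6 h by the study's methods, while the labels give Day 0. The other libraries, 3 each, came from THP-1 cells with the same dose of *E. coli* BEVs isolated with epsilon-poly-L-lysine (EPL) or with vesicles of *S. aureus* at 10 μg/mL, prepared by UC (SUC) or with that polymer (SPL). The replicates were triplicate wells of a cell line, so the p-values measure the spread between these wells, and no primary monocytes were measured. The strand setting of the counting is not known here, and genes with overlapping or antisense partners are uncertain. The question was how the RNA of a monocytic cell changed when it met these vesicles.

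Vesicles of Gram-negative bacteria carry lipopolysaccharide, lipoproteins and other bacterial molecules on and in a membrane. Lipopolysaccharide is recognised by TLR4 with its partners MD-2 and CD14, and the receptor signals through MYD88 to NF-kappa B and AP-1, which drive cytokine genes, and through TICAM1 (TRIF) to the IRF factors, which drive type I interferon and then the interferon-stimulated genes. The same pathways switch on their own inhibitors. Monocytes answer such signals with interleukins, with chemokines that attract other leukocytes, with surface proteins for the contact with T cells and with enzymes that change the local chemistry of oxygen, lipids, metals and amino acids.

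In the EUC group, 1621 of 17198 tested genes rose (9.43% of the tested genes) and 989 fell (5.75%), with 0.01 as the highest adjusted p and 2-fold as the smallest change in edgeR's quasi-likelihood test, p-values adjusted by Benjamini-Hochberg. Such genes are called DEGs here, and every gene said to rise or fall is one. In 25.9% of the tested genes every EUC library lay above every PBS library, and in 25% below. The fitted rises were larger than the falls. A rise of at least 4-fold was fitted for 910 DEGs, of at least 16-fold for 330 and of at least 64-fold for 133, whereas a fall of at least 4-fold was fitted for 225 DEGs and of at least 16-fold for 12. In 69 of the DEGs that rose, no PBS library held a count, whereas no DEG that fell lacked a count in EUC. The fitted size of a rise without a PBS count has no measured base, so the counts at the higher folds are uncertain. CSF3, for example, was fitted at 7 on the log2 scale and enters the count at 64-fold. With the PBS group set to 3 counts over its libraries it was at least 16.8-fold higher. The median log2 fold change of all tested genes was 0.00083, a centre that the normalization sets close to 0. Protein-coding genes gave 1269 of the rises and 771 of the falls, and lncRNA genes 262 and 169. The 1621 genes that rose held 3.94% to 3.96% of the counted reads in the PBS libraries and 14.7% in each EUC library, by construction of the list. In RNA from a whole well, fewer cells with a transcript and less of it per cell cannot be told apart.

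**Figure D1:**
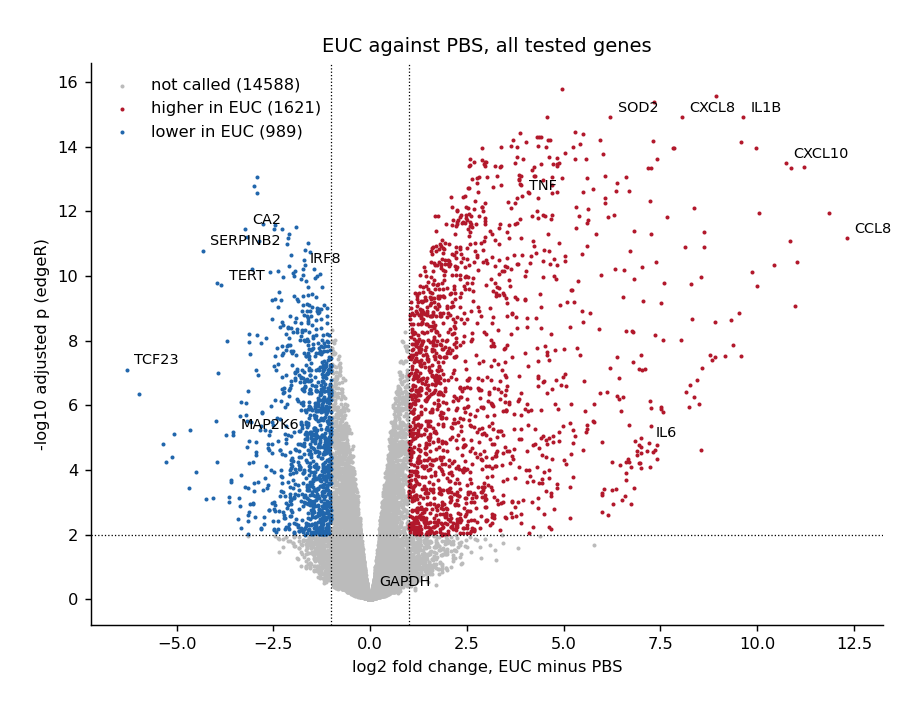
Each point is a tested gene, with the log2 fold change of EUC minus PBS on the x axis and −log10 of the adjusted p-value (edgeR) on the y axis, and dotted lines at a 2-fold change and at an adjusted p of 0.01. Red points are the 1621 genes higher in EUC and blue points the 989 lower in EUC, and the red points reach much farther from 0 than the blue ones.

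Between 14399421 and 16637345 reads were counted on genes in the 6 libraries. Pearson's r of log2 CPM (CPM brings the counts to a common library size after normalization, and a prior count of 2 was added on the log scale) across the tested genes was 0.990 to 0.991 between PBS libraries, 0.973 between EUC1 and EUC3, 0.983 to 0.987 for the other pairs of EUC libraries and 0.915 to 0.927 between a PBS and an EUC library. EUC1 and EUC3 thus stood farthest apart within a group. The log2 CPM difference EUC3 minus EUC1 had a Spearman rho of −0.252 with the exonic length of the gene over 17174 genes, against −0.146 for PBS3 minus PBS1, a description across genes of shared libraries. Without EUC1, 1555 genes rose and 1057 fell, and without EUC3, 1637 rose and 938 fell. Mitochondrial genes took 3.71% to 3.97% of the counted reads in PBS and 4.33% to 4.41% in EUC. GAPDH, the glycolytic enzyme often used as a reference gene, lay at 668, 686 and 705 CPM in PBS and at 675, 716 and 747 CPM in EUC, a log2 difference of 0.05 ± 0.07 (SE, adjusted p = 0.572, edgeR).

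Interleukins of the IL-1 family and chemokines had the highest medians of the gene lists. Of 6 tested members of the interleukin-1 family, 5 rose and none fell, with a median log2 fold change of 7.54 over the tested members, or 5.55 with members lacking a PBS count set to their lower bound. IL1B, the precursor of the fever-inducing cytokine IL-1 beta, was at 1.54, 2.71 and 2.21 CPM in the 3 PBS libraries and at 1524, 1688 and 1987 CPM in the 3 EUC libraries. The groups were far apart, and EUC3 was the highest library. The fitted log2 fold change was 9.64 ± 0.2 (SE, as for all fold changes below, adjusted p = 1.22e-15, edgeR). IL1A, which encodes the membrane-associated sister cytokine, had 3 counts in all PBS libraries together and 14, 13.7 and 14.2 CPM in EUC, a ratio of 229.9-fold (95% exact binomial interval 78.3 to 1118). Such intervals and the limits set at 3 counts cover counting error only. IL33, an alarmin, had no PBS count and lay at 5.27, 6.41 and 6.11 CPM in EUC, at least 97.6-fold higher when the PBS group is set to 3 counts over its libraries. IL1RN, which encodes the receptor antagonist that blocks IL-1, rose from 15, 16.6 and 17.9 CPM to 91.6, 99.4 and 111 CPM (2.61 ± 0.1 on the log2 scale). IL36B also rose, from no PBS count to 1.17, 1.09 and 1.84 CPM, at least 22.5-fold higher. IL36G, too rare to be tested, had no PBS count and 31 EUC counts. IL18, whose product needs the same protease as IL-1 beta, was the member without a call: its values were 8.45, 8.82 and 10.3 CPM in PBS and 5.53, 9.48 and 13 CPM in EUC, and the groups overlapped (adjusted p = 0.955, edgeR).

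Among the other interleukins and haematopoietic cytokines, 11 of 15 tested members rose and none fell, with a median of 3.26 on the log2 scale. Some subunits of the IL-12 family stood out by size. EBI3, a subunit of IL-27 and IL-35, was at 0.576, 0.823 and 0.537 CPM in PBS and 447, 478 and 577 CPM in EUC (9.58 ± 0.24, SE). IL12B, the p40 subunit of IL-12 and IL-23, was at 0.064, 0.176 and 0.119 CPM in PBS and 26.4, 39 and 43.6 CPM in EUC (8.13 ± 0.37). IL23A, the p19 subunit that pairs with p40 to make IL-23, went from 3.52, 2.47 and 3.16 CPM to 173, 201 and 240.5 CPM (6.07 ± 0.22, adjusted p = 5.67e-13, edgeR). In each of these genes every EUC library lay above every PBS library, and EUC1 was the lowest of the EUC libraries. IL12A, the p35 subunit of IL-12 and IL-35, was too rare to be tested, with 24 PBS counts and 11 EUC counts. IL6, which drives the acute-phase response, was rare: no PBS library held a count, and the EUC libraries held 0.585, 1.22 and 1.71 CPM, or 54 counts in all. That is at least 19.3-fold higher, with EUC3 the highest and EUC1 the lowest of the EUC libraries. CSF3, the granulocyte growth factor G-CSF, likewise went from no PBS count to 0.976, 0.897 and 1.18 CPM, at least 16.8-fold higher. IL10, which restrains inflammation, was too rare to be tested, with no PBS count and 19 EUC counts. IL32 rose by 3.26 on the log2 scale, from a mean of 1.59 ± 0.179 CPM (SD, n = 3) to 15.4 ± 2.63 CPM.

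Of 12 tested CXC chemokines 11 rose (median 6.97, or 6.65 with lower bounds), and 14 of 16 tested CC and CX3C chemokines rose (median 5.69). None of either group fell. CXCL8, the neutrophil attractant IL-8, lay at 7.81, 6.88 and 7.45 CPM in PBS and at 1682, 1835 and 2359.7 CPM in EUC. No EUC library came near a PBS library, and EUC3 was again the highest. The log2 fold change was 8.05 ± 0.17 (SE, adjusted p = 1.22e-15, edgeR). The related neutrophil attractants CXCL1, CXCL2 and CXCL3, whose sequences are close enough for reads to be shared, rose by 6.6, 6.39 and 6.71. CXCL10, an interferon-responsive T-cell attractant, had 3 PBS counts and 92.7, 112 and 148 CPM in EUC, a ratio of 1932-fold (95% exact binomial interval 661 to 9372). Of the chemokines that share its receptor CXCR3, CXCL11 rose by 7.26 ± 0.31 and CXCL9 from no PBS count to 0.911, 1.73 and 1.45 CPM, at least 22.4-fold higher. CXCL12, the ligand of CXCR4, was at 0.192, 0.235 and 0 CPM in PBS and 54.2, 46.1 and 49.2 CPM in EUC, and CXCL13, a B-cell attractant, had 1 PBS count and 3.58, 4.36 and 4.86 CPM in EUC. The CXC member without a call was CXCL16, at 2.43, 2.41 and 1.97 CPM and 3.51, 4.49 and 2.63 CPM.

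CCL8, a monocyte attractant, had no count in PBS and 36.8, 36.6 and 49 CPM in EUC, at least 672-fold higher. CCL4 (MIP-1 beta) was at 0.448, 0.176 and 0.298 CPM in PBS and 237, 321 and 373 CPM in EUC (9.96 ± 0.26), with EUC1 lowest and EUC3 highest. Its copy CCL4L2 was fitted at 11.22, but the near-identical genes share reads and their split is uncertain. CCL2 (MCP-1) rose by 7.41 ± 0.21, CCL20, which attracts CCR6-bearing cells, by 6.81 ± 0.29 and CCL3 (MIP-1 alpha) by 5.09 ± 0.32 (SE each). CCL3 overlaps its antisense gene CCL3-AS1 and has near copies, so its count is uncertain. CCL1 went from no PBS count to 2.86, 3.52 and 4.6 CPM, at least 60.3-fold higher. CCL5 (RANTES) was already present in PBS, at 48.6, 51.3 and 53.7 CPM, and was at 275, 269 and 328 CPM in EUC, which is a smaller log2 change of 2.51.

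**Figure D2:**
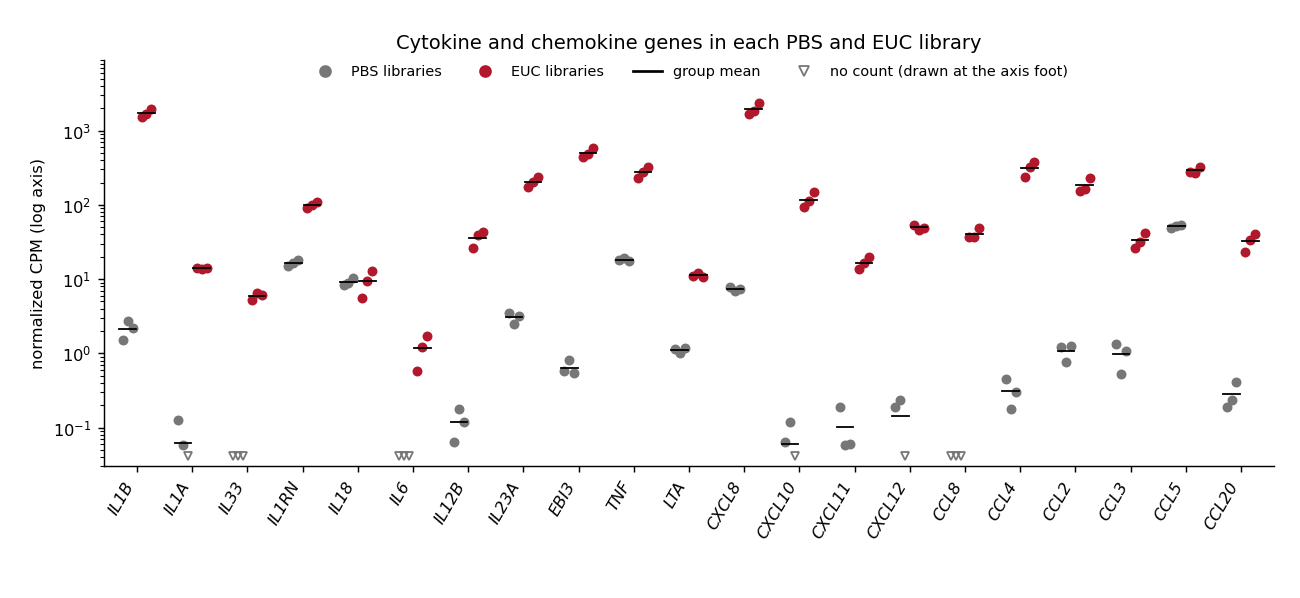
Points are normalized CPM values (log axis) of cytokine and chemokine genes in the 3 PBS libraries (grey) and the 3 EUC libraries (red), with lines at the group means and open triangles for libraries without a count. In IL1B, CXCL8, EBI3 and CCL4 the EUC points lie far above the PBS points, and in IL18 the groups overlap at 5.53 to 13 CPM.

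Chemokine receptors split in both directions: 4 of 9 tested members rose and 3 fell. CCR7, which guides maturing dendritic cells to lymph nodes, had no PBS count and 1.3, 1.47 and 1.58 CPM in EUC, at least 23.9-fold higher. CCR1, a receptor for CCL3 and CCL5, rose from 71, 70.5 and 71.8 CPM to 204, 203 and 169.9 CPM, and ACKR3, a scavenging receptor of CXCL12, from 2.3, 1.59 and 1.79 CPM to 4.88, 5.77 and 6.77 CPM. CXCR4, the signalling receptor of CXCL12, fell from 83.3, 88.8 and 84.7 CPM to 26, 25.7 and 27.5 CPM (−1.7 ± 0.08), the opposite direction to its ligand. CXCR2, a receptor of CXCL8 and CXCL1, also went against its ligands, with 18.6, 18.6 and 19.6 CPM in PBS and 5.14, 6.22 and 5.19 CPM in EUC. CX3CR1, the fractalkine receptor of patrolling monocytes, fell by 1.07, close to the 2-fold threshold, and lost the call without EUC3 (−0.98).

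In the TNF superfamily, 8 of 13 tested ligands rose and 1 fell, with a median of 1.6. TNF itself was at 18.3, 19 and 17.3 CPM in PBS and at 227, 273 and 323 CPM in EUC. The groups lay far apart, with EUC3 highest. The fitted change was 3.91 ± 0.14 (adjusted p = 3.34e-13, edgeR). TNFSF15 rose by 4.05, LTA (lymphotoxin alpha) by 3.33 and TNFSF13B, the B-cell survival factor BAFF, by 2.57. TNFSF14 (LIGHT) was the ligand that fell, from 22.9, 22.2 and 22 CPM to 9.69, 9.48 and 6.25 CPM. Of 37 tested cytokine receptors and TNF receptor superfamily members, 17 rose and none fell (median 0.78). IL7R, the IL-7 receptor chain, lay at 1.47, 1 and 0.775 CPM in PBS and 253, 250.4 and 243 CPM in EUC, with the EUC libraries close together (7.84 ± 0.21). TNFRSF18 (GITR), TNFRSF9 (4-1BB) and TNFRSF4 (OX40), co-stimulatory receptors best known from T cells, rose by 8.62 ± 0.4, 7.17 ± 0.21 and 6.38 ± 0.53.

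The sensing machinery had a smaller median change than the cytokine lists. Of 25 tested Toll-like receptor and lipopolysaccharide recognition genes, 9 rose and 1 fell, with a median of 0.50. TLR4 rose from 25.3, 24.8 and 24.3 CPM to 66.1, 61 and 57.7 CPM (1.31 ± 0.11) and its co-receptor CD14 from 3.2, 3.59 and 4.53 CPM to 8.39, 9.16 and 9.07 CPM (1.23 ± 0.19). LY96, which encodes the partner MD-2, was too rare to be tested, with 2 PBS counts and 5 EUC counts. TLR2, which senses lipoproteins, was at 75.2, 65.3 and 65.1 CPM and 98.4, 90.3 and 102 CPM, a significant difference of 0.5 that stayed under 2-fold. TLR5, the flagellin receptor, had 2.18, 3.06 and 2.68 CPM and 1.69, 1.6 and 1.51 CPM and was not a DEG (adjusted p = 0.0245, edgeR). The largest rises were in TLR8 (4.33 ± 0.4) and TLR7 (3.31 ± 0.42), which sense RNA in endosomes and stayed at or under 3.14 CPM, and in the signalling kinase IRAK2 (4.7 ± 0.15). The adaptor MYD88 rose by 1.82 ± 0.08. CD180, which restrains TLR4, was the member that fell (−1.16 ± 0.25), and it lost the call without EUC1, at −0.91.

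Of 29 genes for NF-kappa B subunits, inhibitors and restrainers, all tested, 18 rose and none fell (median 1.80). The subunit genes did not move together. NFKB2 was at 29.6, 33.8 and 33.1 CPM in PBS and 618, 655 and 687 CPM in EUC (4.34 ± 0.11), and NFKB1 at 64.1, 58.3 and 60.7 CPM and 432, 452 and 403 CPM (2.81 ± 0.09). RELA, the main transactivating subunit, was at 98, 102 and 98.8 CPM and 107, 103 and 92 CPM, without a detectable difference (0.01 ± 0.08, adjusted p = 0.901, edgeR). The inhibitors rose as well. NFKBIA (I kappa B alpha), which holds the dimers in the cytoplasm, went from 57.1, 56.7 and 66.9 CPM to 533, 579 and 735 CPM (3.35 ± 0.14). TNFAIP3 (A20), a ubiquitin editor that shuts the pathway off, went from 16, 12.5 and 16 CPM to 611, 604 and 524 CPM (5.29 ± 0.12). BIRC3, a ubiquitin ligase of TNF receptor signalling, TNIP3, a partner of A20, and TRAF1 rose by 7.82 ± 0.2, 7.24 ± 0.26 and 4.71 ± 0.18 (SE each).

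Immediate early and AP-1 factors gave 17 rises and 1 fall among 30 tested genes (median 1.20). IER3, whose exons overlap an antisense gene, rose by 5.15 ± 0.36, EGR2 by 4.63 ± 0.13 and ATF3, a stress-induced repressor, by 4.47 ± 0.14. FOSL2 was the member that fell, from 138, 136 and 132 CPM to 61.3, 51.7 and 37.1 CPM. Among 23 MAP kinase kinases and dual-specificity phosphatases, 7 rose and 2 fell (median 0.24). The 7 rises included phosphatases that switch MAP kinases off, among them DUSP1 (4.2 ± 0.19), DUSP6 (3.86 ± 0.13), DUSP4 (3 ± 0.09) and DUSP8 (2.87 ± 0.19). DUSP7 fell (−1.28 ± 0.09). MAP2K6, a kinase that activates p38, fell from 4.03, 4.35 and 3.22 CPM to 0.26, 0.513 and 0.197 CPM (−3.54 ± 0.46), and the groups did not overlap.

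NOD-like receptor and inflammasome genes were mixed, with 6 of 27 tested members up and 4 down (median 0.13). NLRP3, the sensor most often linked to IL-1 beta release, was at 161, 166 and 164 CPM in PBS and 180.5, 186 and 159.9 CPM in EUC, with overlapping groups (adjusted p = 0.321, edgeR), and its exons overlap another annotated gene. NOD2, which senses muramyl dipeptide, rose from 9.66, 9.06 and 10.6 CPM to 35, 31.3 and 29.5 CPM. AIM2, a sensor of cytosolic DNA, had 1 PBS count and 0.65, 0.513 and 0.723 CPM in EUC, a ratio of 31-fold (95% exact binomial interval 5.14 to 1267). CASP1, the protease that matures IL-1 beta, and CASP4, which binds cytosolic lipopolysaccharide, rose by 1.29 ± 0.1 and 1.06 ± 0.08. NLRP1 (−2.06 ± 0.33), NLRC3 (−1.83 ± 0.17), NLRP12 (−1.65 ± 0.14) and the adaptor PYCARD (−1.21 ± 0.22) fell. NLRP12 and NLRC3 are described as restrainers of inflammation. PYCARD was at 57.5, 66 and 67.9 CPM and 20.9, 25.3 and 36.5 CPM, and it shares exonic sequence with PYCARD-AS1, so its count is uncertain.

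Interferon-stimulated genes gave the highest share of DEGs of any list: 47 of 49 tested members rose and none fell, with a median of 3.44. IFIT1, which binds foreign RNA, lay at 4.8, 5.53 and 4.17 CPM in PBS and at 183, 197 and 248 CPM in EUC (5.43 ± 0.14). MX1, an antiviral GTPase, lay at 5.44, 5.47 and 4.23 CPM and 118, 116 and 118 CPM (4.54 ± 0.12). ISG15, a ubiquitin-like modifier, lay at 30.3, 30.2 and 33.7 CPM and 297, 354 and 546 CPM (3.66 ± 0.24). The EUC libraries agreed closely for MX1 and spread more for ISG15, where EUC3 was the highest. The guanylate-binding proteins GBP5 and GBP2, which attack membranes of intracellular bacteria, rose by 6.07 ± 0.19 and 5.29 ± 0.15, and GBP1 from 2 PBS counts to 5.53, 5.45 and 5.52 CPM, a ratio of 136-fold (95% exact binomial interval 37.2 to 1128). BST2 (0.82 ± 0.16) and IFITM2 (0.37 ± 0.2) were the tested members that were not DEGs. IFNB1, a type I interferon known to induce such genes, was itself near the limit of detection. It held 5 counts in PBS and was at 0.195, 0.577 and 1.45 CPM in EUC, where EUC1 lay at the level of PBS1 and EUC3 above the others, and it was not a DEG (2.77 ± 0.85, adjusted p = 0.0146, edgeR). Without the low-count filter its adjusted p was 0.00125, and without EUC1 it was 0.00319.

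Of 17 tested interferon genes, IRF factors and STAT factors, 9 rose and 1 fell (median 1.91). STAT2, a part of the interferon-activated complex, rose by 2.63 ± 0.11. STAT4 was at 0.384, 0.471 and 0.537 CPM in PBS and 24, 27.3 and 26.1 CPM in EUC (5.77 ± 0.19). STAT3 was at 144, 135 and 132 CPM and 183, 165 and 147 CPM and was not a DEG (adjusted p = 0.0445, edgeR). IRF7, the amplifier of type I interferon, rose by 3.03 ± 0.15, and IRF1 by 1.54 ± 0.1. IRF8, a lineage factor of monocytes, fell: it was at 1029.6, 1063 and 1057 CPM in PBS and at 272, 331 and 341 CPM in EUC (−1.74 ± 0.09). Among 20 feedback inhibitors of cytokine signalling, 4 rose and 2 fell (median 0.10). SOCS3 (3.63 ± 0.13) and SOCS1 (1.44 ± 0.2) rose. SOCS2 (−2.89 ± 0.52) and CISH (−1.43 ± 0.17), targets of STAT5 in blood cells, fell, while STAT5A rose (3.34 ± 0.1). CD274, the checkpoint ligand PD-L1, rose from 0.704, 0.647 and 0.417 CPM to 15.5, 15.4 and 13.8 CPM.

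The promoters of genes that rose together were compared by their letters. RefSeq promoters (GRCh38.p14, 250 bases before the gene's start) were matched by symbol for 11432 tested genes and searched on both strands for the NF-kappa B consensus, for the core of the interferon-stimulated response element (ISRE, GAAA repeated after a gap of any 2 bases) and for the AP-1 site (TGANTCA), where N is any base. The motifs may overlap one another. Of all 27305 promoters, 9.57% held the NF-kappa B consensus, 3.07% the ISRE core and 6.6% the AP-1 site, and in the 11432 promoters of tested genes the shares were 11.9%, 2.48% and 4.0%. In the 1019 promoters of DEGs that rose the shares were 16.58%, 6.67% and 8.34%, and in the 634 promoters of DEGs that fell they were 13.72%, 2.21% and 3.94%. The ISRE core was in 57.14% of 35 promoters of interferon-stimulated genes, and the NF-kappa B consensus in 54.55% of 11 promoters of CXC chemokines. These shares are descriptions, and a match is not a bound site. The promoters below were picked from named genes that rose and held a match, so the presence of a match in each was fixed by the choice. They belong to genes that rose from almost nothing (CXCL10, CXCL11, VCAM1, BIRC3) or encode the cytokine subunits EBI3 and IL23A. The windows hold no exon of the GENCODE annotation, although those of CXCL11 and IL23A lie inside the annotated gene, in an intron. They are written 5′ to 3′ on the strand of the gene, and show the matches in capitals.

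CXCL10: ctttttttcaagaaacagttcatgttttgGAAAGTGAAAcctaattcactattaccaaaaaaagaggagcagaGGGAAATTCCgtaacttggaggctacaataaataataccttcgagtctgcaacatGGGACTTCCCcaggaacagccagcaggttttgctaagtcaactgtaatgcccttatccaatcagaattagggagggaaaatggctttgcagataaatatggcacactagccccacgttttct
CXCL11: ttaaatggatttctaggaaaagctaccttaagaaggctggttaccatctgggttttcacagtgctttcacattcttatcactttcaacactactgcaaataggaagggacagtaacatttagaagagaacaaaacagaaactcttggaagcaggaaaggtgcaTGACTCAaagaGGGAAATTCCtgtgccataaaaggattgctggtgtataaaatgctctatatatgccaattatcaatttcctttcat
VCAM1: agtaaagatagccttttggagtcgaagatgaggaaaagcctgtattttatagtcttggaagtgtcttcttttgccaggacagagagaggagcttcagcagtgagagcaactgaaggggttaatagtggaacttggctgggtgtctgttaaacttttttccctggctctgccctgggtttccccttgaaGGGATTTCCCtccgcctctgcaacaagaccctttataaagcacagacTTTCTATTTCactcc
BIRC3: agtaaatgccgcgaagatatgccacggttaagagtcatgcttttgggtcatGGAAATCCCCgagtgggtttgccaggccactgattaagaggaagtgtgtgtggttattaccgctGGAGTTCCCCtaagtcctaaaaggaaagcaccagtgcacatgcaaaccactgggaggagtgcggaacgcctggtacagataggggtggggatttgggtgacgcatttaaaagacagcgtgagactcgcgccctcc
EBI3: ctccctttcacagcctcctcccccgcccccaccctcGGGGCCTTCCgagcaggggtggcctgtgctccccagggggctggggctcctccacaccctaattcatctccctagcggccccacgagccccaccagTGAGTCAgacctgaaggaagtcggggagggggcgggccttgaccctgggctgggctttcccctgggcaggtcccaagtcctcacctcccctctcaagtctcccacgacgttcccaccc
IL23A: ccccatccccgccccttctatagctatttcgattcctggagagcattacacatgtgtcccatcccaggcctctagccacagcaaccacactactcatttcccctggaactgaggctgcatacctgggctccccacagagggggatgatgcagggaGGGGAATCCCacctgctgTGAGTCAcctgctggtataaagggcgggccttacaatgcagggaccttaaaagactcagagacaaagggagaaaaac

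The CXCL10 promoter, chr4:76023498-76023747 (- strand), held an ISRE core and 2 NF-kappa B matches. The CXCL11 promoter, chr4:76036071-76036320 (- strand), held the same NF-kappa B letters GGGAAATTCC and an AP-1 site. The VCAM1 promoter, chr1:100719492-100719741 (+ strand), held an NF-kappa B match and an ISRE core that ended 6 bases before the start. The BIRC3 promoter, chr11:102317234-102317483 (+ strand), held 2 NF-kappa B matches. The EBI3 promoter, chr19:4229273-4229522 (+ strand), and the IL23A promoter, chr12:56338634-56338883 (+ strand), each held an NF-kappa B match and an AP-1 site, and in IL23A they lay close together. Of 129 named genes that rose and had a promoter, at least 56 held 1 or more of the motifs. The share of all promoters with any of the motifs was not computed, and the named genes were picked largely by their change. The count therefore says nothing about enrichment.

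Genes of dendritic-type maturation and co-stimulation rose in 14 of 16 tested cases (median 4.06). SLAMF7, a receptor of the SLAM family, was at 0.704, 0.765 and 0.775 CPM in PBS and at 351, 370.2 and 389.6 CPM in EUC, with little spread within either group (8.94 ± 0.16, adjusted p = 2.76e-16, edgeR). CD80, the B7 ligand of CD28, had 2 PBS counts and 13.8, 13.8 and 10.2 CPM in EUC, a ratio of 312-fold (95% exact binomial interval 85.9 to 2580.3). Its exons overlap those of TIMMDC1. CD86, the other B7 ligand, stayed low at 0.448, 0.412 and 0.417 CPM and 0.52, 0.641 and 0.855 CPM and was not a DEG. CD40 rose by 5.02 ± 0.13 and CD83 by 3.9 ± 0.17. IDO1, which degrades tryptophan, had no PBS count and 2.15, 2.63 and 3.55 CPM in EUC, at least 45.7-fold higher.

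MHC class I genes and the immunoproteasome gave 7 rises among 17 tested members (median 0.74), a count that lay between 4 and 7 in the alternative fits with the same thresholds. TAP1, the peptide transporter, rose by 2.58 ± 0.07 and HLA-E by 1.2 ± 0.11. MHC class II genes gave 2 rises among 12 (median 0.58): HLA-DRA, from 2.43, 3.12 and 3.7 CPM to 8.13, 9.87 and 9.99 CPM, and the class II transactivator CIITA (1.41 ± 0.28), whose exons overlap DEXI. HLA genes are close relatives, so their reads can be shared.

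Adhesion molecules moved in both directions, with 5 of 18 tested members up and 2 down (median 0.32). VCAM1, which binds the integrin VLA-4, had no PBS count and 11.5, 10.8 and 11 CPM in EUC, at least 183-fold higher. ICAM1, the ligand of LFA-1, was at 1.73, 1.59 and 1.07 CPM and 250.5, 248 and 197 CPM (7.3 ± 0.18), and it shares exonic sequence with ICAM4-AS1. ITGB8 went from no PBS count to 5.33, 4.93 and 5.65 CPM, at least 87.4-fold higher. ITGA4, the alpha chain of VLA-4, fell from 85.3, 74.1 and 71.4 CPM to 32.3, 31.6 and 26.8 CPM, and SELPLG, the selectin ligand PSGL-1 used for rolling, from 74.7, 73.1 and 70.8 CPM to 19.4, 15.4 and 16.6 CPM (−2.09 ± 0.11). Of 18 tested C-type lectin and scavenger receptors, 7 rose and 3 fell (median 0.07). CLEC7A (dectin-1) rose by 5.96 ± 0.32, and OLR1 (LOX-1) from 1 PBS count to 4.88, 4.49 and 6.11 CPM, a ratio of 255-fold (95% exact binomial interval 45.2 to 10095). CLEC12A, an inhibitory lectin of myeloid cells, fell from 8.13, 6.41 and 6.68 CPM to 0.585, 0.577 and 1.12 CPM (−3.21 ± 0.35).

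**Figure D3:**
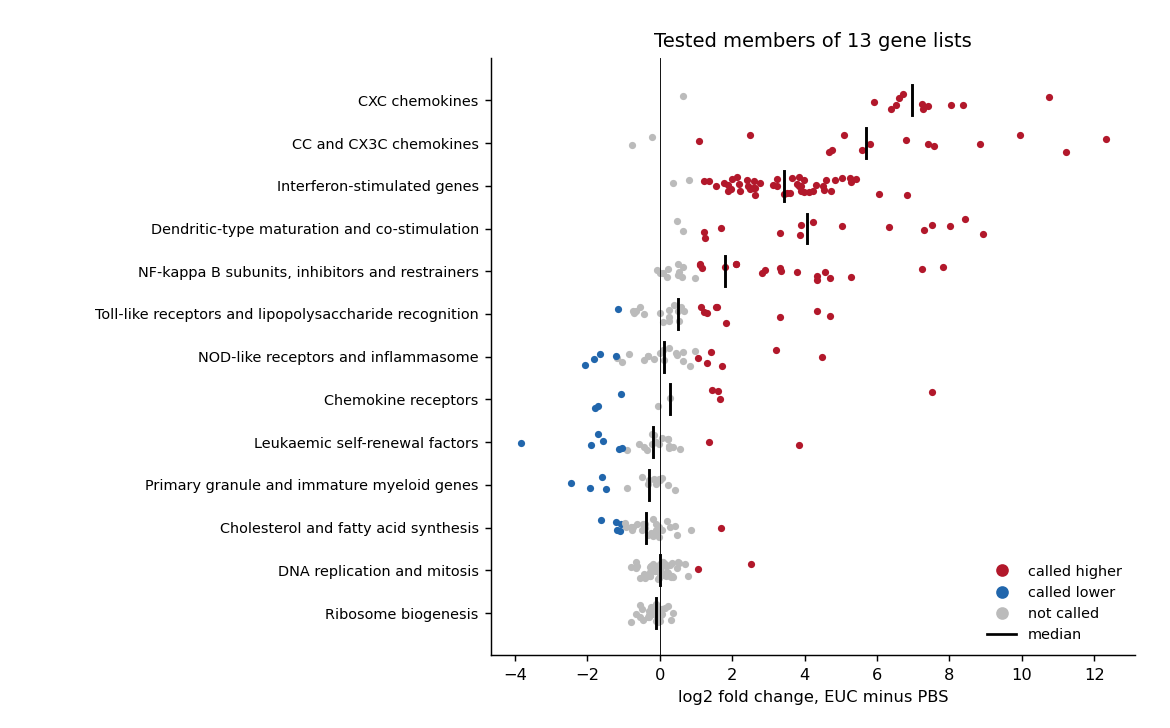
Each point is the log2 fold change of EUC minus PBS of a tested member of 13 gene lists, coloured by call (red higher, blue lower, grey not called), with a black line at the list's median. The medians are 6.97 for CXC chemokines, 3.44 for interferon-stimulated genes, 0.50 for Toll-like receptor genes and −0.29 for primary granule genes.

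Enzymes of lipid mediators rose in 9 of 16 tested cases and fell in 1 (median 1.07). PTGS2, the inducible cyclooxygenase COX-2, was at 1.09, 1.06 and 0.835 CPM and 16.6, 17.7 and 13.9 CPM (4.01 ± 0.22). PLA2G7, the platelet-activating factor acetylhydrolase, had 1 PBS count and 10.5, 10.8 and 10.5 CPM in EUC, a ratio of 523-fold (95% exact binomial interval 93.4 to 20698). The prostaglandin E2 receptor PTGER2 rose by 4.39 ± 0.26. LTA4H, which makes leukotriene B4, was the member that fell (−1.2 ± 0.14).

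Oxidative stress, NADPH oxidase and NRF2 target genes gave 12 rises and 1 fall among 23 tested members (median 1.22). SOD2, the mitochondrial superoxide dismutase, was at 78.2, 76.9 and 82.3 CPM in PBS and at 4898, 5821 and 6855 CPM in EUC (6.21 ± 0.13, adjusted p = 1.22e-15, edgeR), the second largest gain in mean CPM among nuclear protein-coding DEGs after FTL. HMOX1, heme oxygenase-1, went from 41.3, 38.6 and 40.4 CPM to 746, 827 and 1005 CPM (4.42 ± 0.13). CYBB, the catalytic subunit of the phagocyte oxidase, rose by 3.37 ± 0.11. Catalase (CAT), which removes hydrogen peroxide, fell from 482, 479.8 and 477 CPM to 148, 159.9 and 168 CPM (−1.59 ± 0.07), the opposite direction to SOD2. It was the only member that fell.

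Of 17 tested genes of itaconate, kynurenine, arginine and NAD metabolism, 11 rose and 1 fell (median 2.94). ACOD1, which makes the antibacterial metabolite itaconate, had no PBS count and 2.08, 1.73 and 3.02 CPM in EUC, at least 37.5-fold higher. KYNU, of the kynurenine pathway, was at 15.5, 15.6 and 16.9 CPM and 217, 241 and 289 CPM, and NAMPT, of NAD salvage, at 23.2, 21.5 and 23.4 CPM and 168, 170.1 and 182 CPM. IL4I1, a secreted amino acid oxidase named outside the list, was at 5.69, 6.94 and 6.44 CPM and 1003, 991 and 1099 CPM (7.34 ± 0.14). Metal handling genes gave 10 rises and 1 fall among 15 tested members (median 1.58), with 7 to 10 rises in the alternative fits with the same thresholds. MT2A, a zinc-binding metallothionein, rose from 16.8, 16.2 and 18.8 CPM to 271, 294 and 531 CPM, with EUC3 well above the other EUC libraries. The ferritin chains FTH1 and FTL rose by 3.82 ± 0.19 and 1.61 ± 0.15. FTH1 overlaps BEST1 and has many pseudogenes. The iron transporters parted: SLC11A2 (DMT1) rose by 2.25 ± 0.09, and SLC11A1 (NRAMP1), of the phagosome, fell by 1.7.

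Survival genes split between members of the same family. BCL2A1 (A1), an NF-kappa B-induced survival factor, rose from 0.384, 0.529 and 0.775 CPM to 30.8, 42.5 and 65.3 CPM (6.33 ± 0.33). BCL2 fell from 183, 169.7 and 164 CPM to 54, 54.5 and 50.9 CPM (−1.7 ± 0.11), and the pro-apoptotic BIK fell by 1.71 ± 0.17. In the whole list, 10 of 28 tested members rose and 2 fell (median 0.70). Complement and acute-phase genes gave 9 rises and 1 fall among 18 (median 0.94), among them the anaphylatoxin receptors C3AR1 (3.75 ± 0.11) and C5AR1 (2.82 ± 0.24) and the pentraxin PTX3 (3.4 ± 0.18). C1S fell by 1.53.

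Matrix, plasminogen and tissue remodelling genes gave 17 rises and 1 fall among 25 tested members (median 1.4). TNFAIP6, which binds hyaluronan, had 2 PBS counts and 72.8, 85.6 and 114 CPM in EUC, a ratio of 2241-fold (95% exact binomial interval 620.0 to 18511). MMP9, a gelatinase whose exons overlap an antisense gene, had 2 PBS counts and 57.1, 46.8 and 49.6 CPM in EUC, a ratio of 1264-fold (95% exact binomial interval 349 to 10439.9). THBS1, thrombospondin-1, rose from 0.704, 0.529 and 0.656 CPM to 115, 91 and 87.8 CPM (7.27 ± 0.22). The member that fell was SERPINB2 (PAI-2), an inhibitor of urokinase, at 30.3, 37.8 and 40.4 CPM in PBS and 2.15, 1.99 and 1.25 CPM in EUC (−4.33 ± 0.2). S100 and monocyte maturation genes gave 7 rises and 1 fall among 17 (median 0.39). S100A8 and S100A9, the chains of calprotectin, rose by 2.21 ± 0.23 and 2.2 ± 0.18.

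Genes of immature and leukaemic myeloid cells were among the lists with more falls than rises. Of 15 tested primary granule and immature myeloid genes, 4 fell and none rose (median −0.29): SERPINB10 (−2.45 ± 0.2, exons shared with another gene, as for SERPINB2), MS4A3 (−1.92 ± 0.13), MPO, the granule peroxidase (−1.59 ± 0.19), and PRSS57 (−1.49 ± 0.26). MS4A3, a marker of granulocyte-monocyte progenitors, was at 92, 95.9 and 99.1 CPM in PBS and 21.4, 25.2 and 29.1 CPM in EUC. Of 24 tested members of the list of leukaemic self-renewal factors, 6 fell and 2 rose (median −0.19). The list also holds factors of myeloid differentiation, such as CEBPE and SPI1, so its counts are not those of self-renewal genes alone. TERT, the catalytic subunit of telomerase, was at 32.4, 31.2 and 28 CPM and 2.67, 2.05 and 1.64 CPM (−3.84 ± 0.22, adjusted p = 1.92e-10, edgeR). GFI1, a repressor of early myeloid cells, was at 402, 392 and 389 CPM and 112, 108 and 94.3 CPM (−1.91 ± 0.08), and MYB, which keeps progenitors immature, at 458, 452 and 459 CPM and 148, 155 and 161 CPM (−1.56 ± 0.07). In all of these the groups were clearly apart. MYC was lower (−0.91), which is significant but under 2-fold. CEBPE was called (−1.71 ± 0.46, adjusted p = 0.00653, edgeR) and lost the call in 5 of the 6 fits that left out a library. BCL6 (3.85 ± 0.12) and SPI1 (PU.1, 1.35 ± 0.13) rose.

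Outside the lists, the largest loss of mean CPM was that of CA2, carbonic anhydrase II, from 1920.5, 1923 and 1939.8 CPM to 169, 204 and 245 CPM (−3.23 ± 0.14). BMP8B, a growth factor of the TGF-beta superfamily, went from 639, 606 and 604 CPM to 83.4, 77 and 68.4 CPM (−3.01 ± 0.1). RET, a receptor tyrosine kinase, went from 736, 679.5 and 649 CPM to 126, 131 and 116 CPM (−2.47 ± 0.1). These genes had narrow PBS values and no EUC value near them. The largest fitted falls among protein-coding genes with a mean of at least 1 CPM were in TCF23, a helix-loop-helix factor, at 4.1, 3.65 and 4.23 CPM and 0.13, 0 and 0 CPM, and RAB37, a small GTPase of secretion, at 1.92, 2.53 and 2.86 CPM and 0.195, 0 and 0 CPM. RAB37 and C16orf74 overlap other genes. PADI2, GPA33, KCNF1, C16orf74, KLHL30, NMUR1 and LGALS12 followed, with log2 changes between −3.94 and −3.16.

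**Figure D4:**
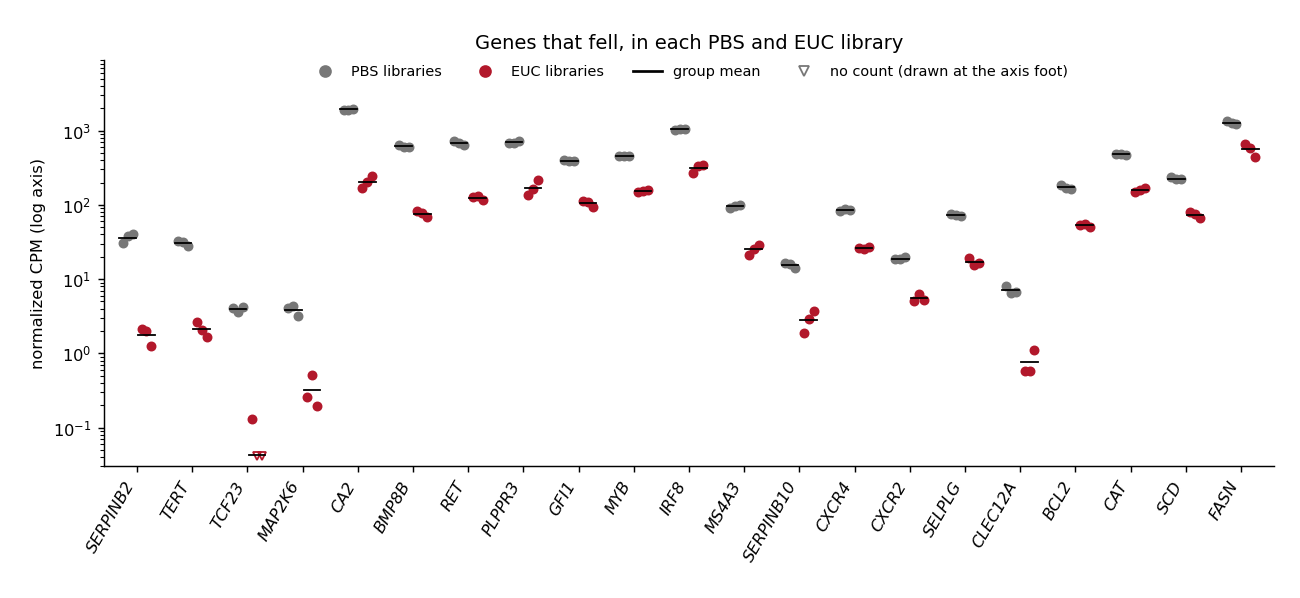
Points are normalized CPM values (log axis) of genes that fell, in the 3 PBS libraries (grey) and the 3 EUC libraries (red), with lines at the group means and open triangles for libraries without a count. In each gene drawn the EUC points lie below the PBS points, with log2 changes of −3.84 in TERT and −1.19 in FASN.

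The largest fitted rises among protein-coding genes outside the lists were in genes with at most 1 count in the PBS libraries together. ETV3L, an ETS-family factor, had no PBS count and 15.9, 16.1 and 16.7 CPM in EUC, at least 267-fold higher. SLC1A2, a glutamate transporter, was at 7.54, 8.2 and 8.94 CPM in EUC (at least 136-fold), and ADORA2A, an adenosine receptor, at 3.64, 3.2 and 2.3 CPM (at least 50.2-fold). CALCRL, the receptor chain for adrenomedullin and CGRP, had 1 PBS count and 12, 11.8 and 9.4 CPM in EUC, a ratio of 548-fold (95% exact binomial interval 97.8 to 21669.5). ADORA2A overlaps the read-through gene SPECC1L-ADORA2A. WNT5A, a WNT ligand of inflamed tissue, went from no PBS count to 2.41, 3.33 and 2.1 CPM (at least 43-fold), and APOBEC3A, a cytidine deaminase induced by interferon, from 1 PBS count to 8.19, 7.62 and 11.4 CPM. MUC5AC, a mucin, spread widely among the EUC libraries (5.14, 2.76 and 1.12 CPM), as did the cilium gene CFAP46 (7.41, 7.11 and 3.94 CPM). MEP1A and TFPI2, without a PBS count, were at least 75.6-fold and 63.4-fold higher.

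Long noncoding RNAs showed the same range. ENSG00000287097, an uncharacterised lncRNA gene at chr6:114822994-115002280 (hg38), had no PBS count and 27.6, 27 and 35.1 CPM in EUC, at least 493-fold higher. MIR3142HG, the host gene of miR-3142 and miR-146a, lay at 13.5, 16.8 and 19.7 CPM in EUC and had no count in PBS, at least 274-fold higher. The mature miRNAs were not measured. HPYR1, ENSG00000285744 and ENSG00000230647 also lacked PBS counts and were at least 244-fold, 123-fold and 84.7-fold higher. Among the falls, ENSG00000269243, which overlaps RAB8A, went from 33.6, 29.6 and 33.6 CPM to 2.08, 2.05 and 2.1 CPM, and ENSG00000223872, ENSG00000259759, ENSG00000234210 and LINC02723 fell by 5.36, 3.99, 3.73 and 3.54 on the log2 scale.

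Synthesis of cholesterol and fatty acids gave 5 falls and 1 rise among 34 tested genes (median −0.37). SCD, the stearoyl-CoA desaturase, went from 234, 222 and 224 CPM to 80.6, 75.4 and 66.3 CPM (−1.61 ± 0.12), and FASN, fatty acid synthase, from 1357, 1265 and 1239 CPM to 669, 579 and 443 CPM (−1.19 ± 0.12). FADS2 (−1.11 ± 0.08) and TM7SF2 (−1.07 ± 0.17) fell as well, and TM7SF2 lost the call without EUC1, at −0.996. ABCA1, which exports cholesterol, rose from 33.1, 29.2 and 27.2 CPM to 125, 93.5 and 69.4 CPM, with EUC1 highest and EUC3 lowest. Lipid droplet and PPAR genes gave 4 rises and 3 falls among 25 (median 0.14). ACSL1, which activates fatty acids, rose by 2.56 ± 0.09. PDK2 and PDK3, kinases that restrain pyruvate dehydrogenase, fell by 1.31 and 1.42, and PDK2 shares exonic sequence with SAMD14. PPARG was called (−1.1 ± 0.22) and lost the call without EUC1, at −0.86.

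Most enzymes of glycolysis and the TCA cycle were not DEGs: 4 of 45 rose and none fell (median −0.05), a share of 8.89% near the 9.43% of all tested genes. The 4 were SLC2A6, a lysosomal hexose transporter (4.66 ± 0.11), SLC16A3, the lactate exporter MCT4 (1.56 ± 0.08), PKM (1.44 ± 0.08) and PFKFB3 (1.19 ± 0.1). LDHA was lower (−0.68), under 2-fold. HIF1A rose by 1.37 ± 0.09, and of the 15 tested members of its list 4 rose and 2 fell. Of the targets, ADM rose (3.17 ± 0.35), BNIP3L was near the threshold (1.05 ± 0.12) and CA12 lost its call in several fits (3.47 ± 0.84). NDRG1 (−1.09 ± 0.1) and MXI1 (−1.33 ± 0.12) fell, and NDRG1 lost the call without EUC3, at −0.993.

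DNA replication and mitosis genes gave 2 rises among 52 tested members and no fall (median 0.01): CDKN1A (p21), an inhibitor of cyclin-dependent kinases (2.52 ± 0.08), and CCND1, cyclin D1 (1.04 ± 0.09), which lost the call without EUC2 at 0.999. MKI67, the proliferation marker, was at 467, 434 and 388 CPM and 673, 522 and 310.1 CPM, so the EUC libraries spread across the PBS values. Ribosome biogenesis (31 tested, median −0.10), mitochondrially encoded genes (15 tested, median 0.32) and histone genes (12 tested, median 0.33) had no DEG. Without the fold threshold, 9 of the 15 mitochondrially encoded genes passed, all of them higher in EUC, for example MT-RNR2 (0.6 ± 0.07) and MT-CO1 (0.3 ± 0.07). Of 27 lysosomal genes 5 rose (median 0.26), among them their master factors TFEB (1.28 ± 0.13) and TFE3 (1.08 ± 0.07). Unfolded protein and heat shock genes gave 1 fall among 21 (median 0.01), HSPA1B, near the threshold and nearly identical to HSPA1A. That share of 4.76% was near the 5.75% of all tested genes that fell.

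**Figure D5:**
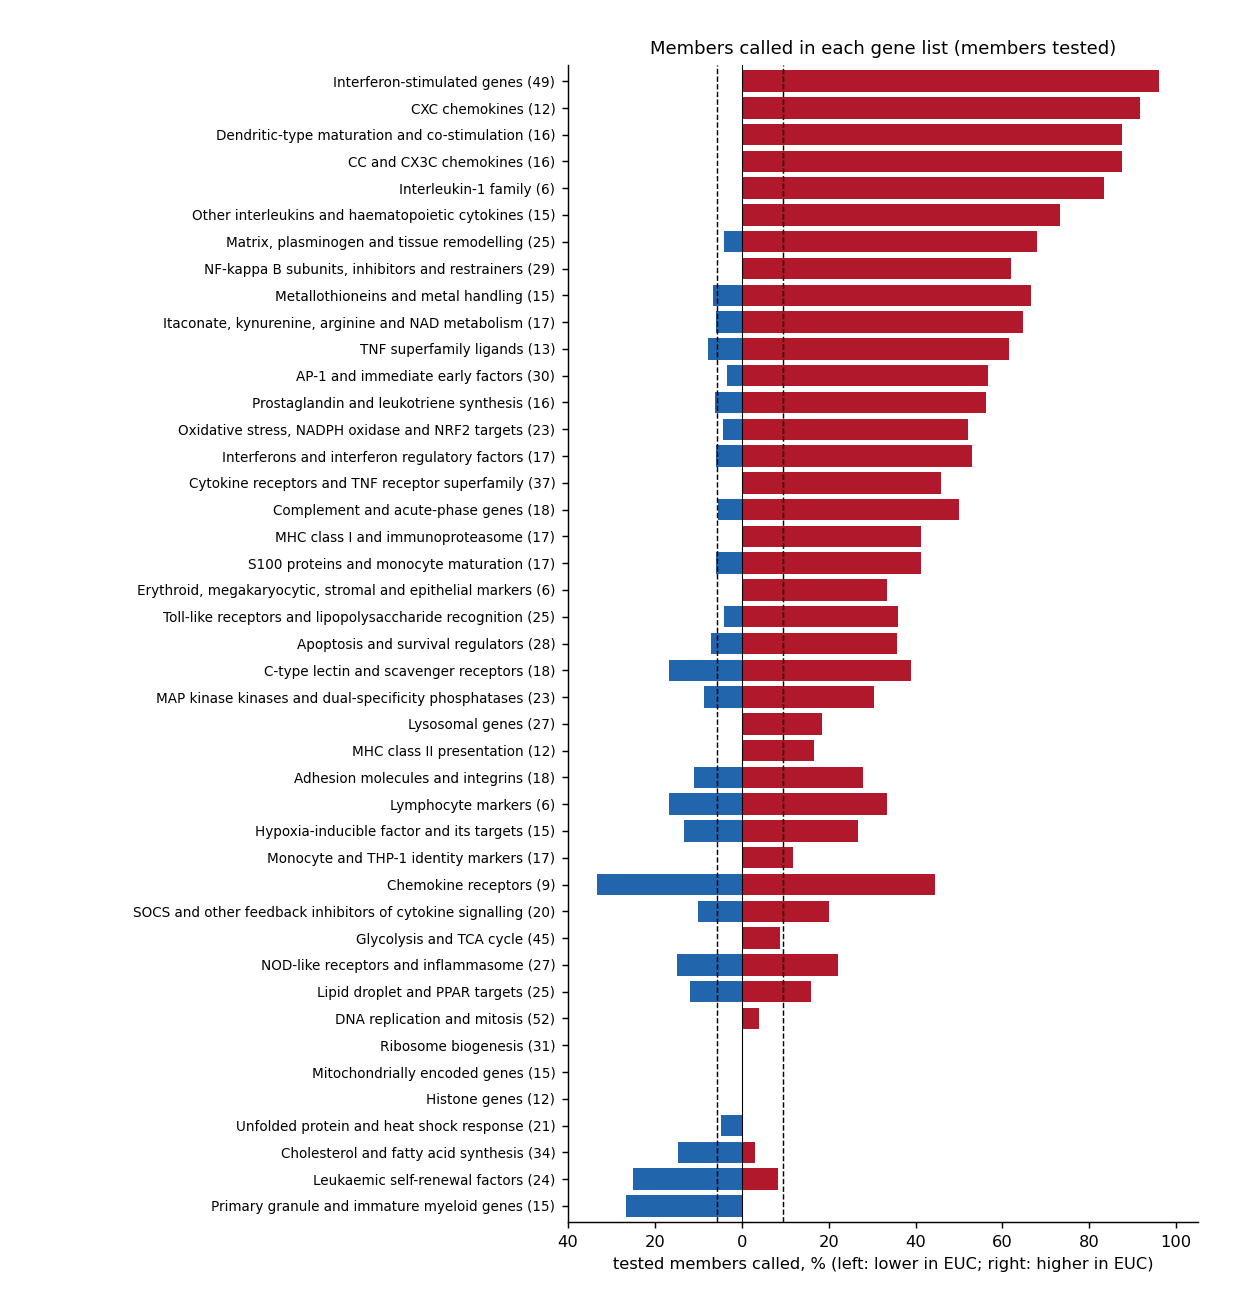
Bars give, for each of 43 gene lists (number of tested members in brackets), the percentage of tested members that were higher (red, to the right) and lower (blue, to the left) in EUC, with dashed lines at the 9.43% and 5.75% of all tested genes. Interferon-stimulated genes and chemokines stand at the top, and primary granule genes, leukaemic factors and lipid synthesis at the bottom.

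The labelled cell line was checked against its markers. Of 18 monocyte and THP-1 identity markers 17 were tested, 2 rose (CD14 and SPI1) and none fell. The rises were 11.8% of the tested markers, near the 9.43% of all tested genes. The summed level of the 18 was 2503 to 2556 CPM in PBS and 3065 to 3419 CPM in EUC. LYZ, lysozyme, whose exons overlap another gene, was at 90.5, 89.4 and 91.3 CPM and 72.6, 76.3 and 72.7 CPM, and CD33 was lower (−0.72), under 2-fold. CD68, a macrophage marker, had 3 counts in each group, too few to be tested, and whether its reads were lost in counting was not tested. Of 16 lymphocyte markers 6 were tested, with 2 rises, PAX5 (1.71 ± 0.26) and CD22, and 1 fall. CD22 had 3 PBS counts and a ratio of 26.4-fold (95% exact binomial interval 8.68 to 131). The summed level of the 16 was 22.5 to 27.1 CPM in PBS and 33.3 to 45.9 CPM in EUC, and CD3D, CD3E and CD3G were at 0 in all 6 libraries. Of 20 erythroid, megakaryocytic, stromal and epithelial markers 6 were tested and 2 rose, COL1A1 (2.24 ± 0.25) and DCN. DCN had 1 PBS count and a ratio of 74.9-fold (95% exact binomial interval 13 to 2999). The sum of the 20 was 307 to 316 CPM in PBS and 223 to 296 CPM in EUC, and 8 of them, HBB and EPCAM included, were at 0.

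EUC libraries were compared directly with the EPL libraries, which received the same dose of *E. coli* BEVs isolated with the polymer. No gene was called in either direction (0% of 17198), with 604 genes at an unadjusted p of at most 0.05 by edgeR and 617 by DESeq2, which also called none. The smallest adjusted p was 0.947. IL1B was at a mean of 1733 CPM in EUC and 1351 CPM in EPL, a log2 difference of 0.36, and IL23A differed by 0.55. A difference that misses the threshold does not show that the preparations act alike.

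Against the SUC libraries, which received *S. aureus* BEVs isolated by UC, 126 genes were higher in EUC (0.733% of the tested genes) and 6 lower (0.0349%). The species and the dose, 1 against 10 μg/mL, differ together, so they cannot be told apart. IL-12 family subunits were among the differences. IL12B was at 36.3 ± 8.9 CPM in EUC (SD, n = 3) and at a mean of 5.38 CPM in SUC (2.76 on the log2 scale, adjusted p = 2.73e-06, edgeR). IL23A was at 205 ± 34 CPM in EUC and 39.5 CPM in SUC (2.37), ETV3L at 16.2 ± 0.405 CPM and 3.08 CPM (2.41), COL5A3, a collagen chain, at 2.1 ± 0.237 CPM and 0.31 CPM (2.74) and CXCL13 at a difference of 2.21. Of the 6 genes lower in EUC, PDK4 had the largest difference, at a mean of 0.54 CPM in EUC and 2.21 CPM in SUC (−2.01). With only the 6 libraries compared the calls of PDK4, COL5A3, CXCL13 and ETV3L were lost, with adjusted p-values of 0.095, 0.0504, 0.0163 and 0.0147 (edgeR). PDK4 and COL5A3 also lost the call without EUC replicate 2 or without SUC replicate 2 or 3, and CXCL13 without EUC replicate 2 or any SUC replicate. TNF did not differ at this threshold (−0.36, adjusted p = 0.11), and neither did MIR3142HG (0.03) or TNFAIP3 (0.21). The count of called genes was 75 without SUC replicate 2 and 24 when only the 6 libraries compared entered the fit.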

How the data were processed

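RNA of the 15 libraries (5 groups of 3 wells) was sequenced by the authors, who deposited a table of raw read counts per gene (hg38). The submitters' processing notes name FastQC 0.11.5, HISAT2 2.1.0, StringTie 1.3.3b, DESeq 1.28.0 and featureCounts, without their roles. The annotation release and strand setting were not given in the sources used here. A count that falls in several genes or near copies can be split or lost, and rare genes have wide counting error.

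The deposited counts were normalized by TMM, filtered by filterByExpr and fitted over all 15 libraries with edgeR 4.0.16 (quasi-likelihood test, R 4.3.3, Benjamini-Hochberg adjustment). DEGs changed by at least 2-fold in either direction with 0.01 as the highest adjusted p. Each EUC value was compared with PBS, EPL and SUC. CPM values use the normalized library size. The fit was also run on counts simulated with its own estimates of spread, which cannot check those estimates. Same-numbered EUC and PBS wells had correlations of their deviations of 0.183, −0.0138 and 0.131, so they were not treated as pairs. Alternatives were DESeq2 1.42.0, its size factors, no low-count filter, the compared libraries alone, no fold threshold, glmTreat, a replicate block and leaving out each library.

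The comparison, the 43 gene lists and the tests were chosen with earlier results of these data known. The text names IL1B, IL6, CXCL8, TNF, IFNB1 and GAPDH. From each list it takes up to 4 DEGs per direction with the largest changes, a mean of at least 1 CPM and no overlap of the groups, or the 2 most expressed members where none was a DEG. It also takes, under the same conditions, protein-coding genes outside the lists (10 per direction) and lncRNA genes (5 per direction). Up to 5 DEGs per direction against SUC follow these conditions too, in the libraries of that comparison. Nuclear protein-coding DEGs with the largest gain or loss of CPM were taken without the conditions on level and overlap. Directions with at most 5 DEGs may be named in full. The following were chosen after their values were seen: TLR4, TLR2, TLR5, NFKB1, NFKB2, NFKBIA, RELA, NLRP3, AIM2, IL18, CXCL9, CXCL1, CXCL2, CXCL3, CXCL16, CCL2, CCL3, CCL5, CCL20, CSF3, ISG15, MX1, STAT3, IRF1, BST2, IFITM2, CD86, CD83, CD40, LDHA, MYC, LYZ, CD33, MKI67, NAMPT, IL36G, IL10, IL12A, LY96 and CD68. Some genes of the lists are not reported here.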

Additional observations from a re-analysis of the deposited data

Results flagged for a closer look

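Among the genes named, 50 differed between the effects of *E. coli* and *S. aureus* BEVs prepared by UC, by the test of EUC against SUC itself at an adjusted p of at most 0.01 (edgeR's quasi-likelihood test) and at least 2-fold. The values in brackets are log2 fold changes of EUC minus SUC. Higher in EUC were cytokines, chemokines and their receptors as well as other genes: CSF3 (3.42), IL12B (2.76), COL5A3 (2.74), ETV3L (2.41), IL23A (2.37), CXCL13 (2.21), IL33 (2.1), WNT5A (2.08), CCL1 (2.06), APOBEC3A (2.06), CALCRL (2.04), TNFRSF4 (2.01), TNFRSF18 (1.94), VCAM1 (1.88) and THBS1 (1.87). A smaller difference in the same direction was found for ENSG00000287097 (1.86), MEP1A (1.84), OLR1 (1.72), SLC1A2 (1.72), CFAP46 (1.67), TRAF1 (1.62), CCL8 (1.61), TNFRSF9 (1.57), ITGB8 (1.54), IL1B (1.53), TFPI2 (1.53), IL7R (1.51), STAT4 (1.47), CXCL3 (1.43) and CXCL12 (1.39), and for PTGS2 (1.32), IL1A (1.32), ENSG00000285744 (1.29), CXCL1 (1.25), PLA2G7 (1.24), MT2A (1.18), CXCL2 (1.18), CLEC7A (1.17), STAT5A (1.12), EBI3 (1.11), CCL20 (1.09), DUSP1 (1.07), MMP9 (1.05), HPYR1 (1.01) and PIM2 (1.01). Lower in EUC were CCDC9B (−1.02), ENSG00000240859 (−1.06), PDE7B (−1.14), MIR9-3HG (−1.3) and PDK4 (−2.01). The species and the dose differed together between these groups. Of the 132 genes called in this comparison, 75 were called without SUC replicate 2, and all 75 were among the 132. With the 6 compared libraries alone 24 of the 132 were called, so most calls were lost. CSF3 lost its call there (adjusted p = 0.0504, edgeR), as did WNT5A (0.0526), CCL20 (0.0527), MT2A (0.119) and PDE7B (0.125), among others named above. CSF3, at a mean of 0.09 CPM in SUC, also lost it without EUC replicate 2 or 3 or SUC replicate 2 or 3.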

How the results depend on the processing

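With the same thresholds the counts of DEGs against PBS moved little: 1428 to 1789 rose and 885 to 1059 fell with other size factors, without the low-count filter, with DESeq2 and with the 6 libraries alone. Leaving out a library gave 1525 to 1637 rises and 893 to 1057 falls. Without the fold threshold 2841 genes were higher and 2410 lower, and glmTreat, which tests against a 2-fold change, called 1062 and 331. The replicate block gave 1581 rises and 972 falls, with 1579 and 948 shared with the reported DEGs, and 121 genes against SUC. Not every well correlated best with its own number. Against EPL no gene was called under any alternative run. Against SUC 24 genes were called with the 6 libraries alone, 429 without the fold threshold, 7 with glmTreat, and 75 to 149 when a library was left out, the 75 without SUC replicate 2. Directions reversed for genes near 0. When a library was left out, IL18 ranged from −0.30 to 0.29, MKI67 from −0.046 to 0.47, NPM1 from −0.19 to 0.13 and RELA from −0.029 to 0.071 on the log2 scale, with negative values for IL18 without PBS replicate 1 (−0.039) or 2 (−0.010) too, and for NPM1 without PBS replicate 1 (−0.017). With the replicate block NPM1 was at −0.0064. Of the named genes' other values against PBS, 3512 kept direction and call, 102 lost the call and 14 gained it. The cause was not tested.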
